A study of Homo sapiens with 27 samples.

Results

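The 10 genes described here encode the receptors NOTCH1, NOTCH2 and NOTCH3, the ligands JAG1, JAG2 and DLL1, and the transcriptional repressors HES1, HEY1, HEY2 and HEYL, which are classical targets of the pathway. They were taken by gene symbol from the 55882 symbols counted in each of 27 RNA-seq libraries, and all 10 symbols were present. The libraries came from U2OS, an established human osteosarcoma cell line, and covered 3 stable derivatives: control cells (labelled WT) carrying the blank pLKO.1 vector, and MMP2sh1 and MMP2sh2 cells, which carry different pLKO.1 hairpins against the matrix metalloproteinase MMP-2. Cells were seeded at 30% confluence (day -2, subconfluent), reached confluence at day 0, and were overconfluent at day +2. Each of the 9 combinations of line and day had 3 libraries, which the study describes as independent biological replicates. Each hairpin is represented by a single transduced line, so that the knockdown and other properties of that line cannot be told apart, and cell density cannot be told apart from days in culture.

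Notch signalling passes between touching cells. A ligand of the Jagged or Delta-like family on one cell binds a Notch receptor on its neighbour, the receptor is cut first by an ADAM protease and then by the gamma-secretase complex, and the released intracellular domain joins the DNA-binding protein RBPJ and a Mastermind (MAML) coactivator in the nucleus. The HES and HEY repressors are among the genes that this complex switches on. In bone, Notch signalling is known to restrain the differentiation of osteoblast precursors, and its components are expressed in many osteosarcomas.

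Counts on genes totalled 33580129 to 59374327 per library (median 40075178), and a gene with 0 reads could therefore have been present at up to 0.0505 to 0.0893 CPM (read counts scaled to the same library size with TMM factors), the level of 3 counts. Of the mesenchymal markers, COL1A1 (1000 to 1490 CPM), VIM (678 to 840 CPM) and RUNX2 (30.0 to 63.7 CPM) were present in every library, whereas the osteoblast genes SP7, BGLAP and COL1A2 stayed below 0.7 CPM, ALPL was read at 0.397 to 6.98 CPM in all 27 libraries, and IBSP had no read. The epithelial gene EPCAM was found at 3.11 to 6.73 CPM, the blood gene PTPRC and the endothelial gene CDH5 at no more than 1.44 and 0.605 CPM, and the muscle gene MYOG had no read. MMP2 itself averaged 232 ± 14 CPM in control cells at day -2, 325 ± 7.0 at day 0 and 489 ± 8.5 at day +2 (SD, n = 3). Its level in MMP2sh1 cells was 17.3%, 18.2% and 19.8% of control on those days, and in MMP2sh2 cells 61.9%, 48.6% and 56.9%, so that the hairpin lines differed in the depth of the knockdown.

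The promoter of HES1 is the textbook example of a Notch-controlled promoter, and its window is shown with those of HEY2 and HEYL because these 3 were the ones, among the 8 members with an entry in the RefSeq table (GRCh38.p14), that held the RBPJ core motif TGGGAA. Each window runs from 250 bases before to 50 bases after the gene start, on the strand of the gene, and the capitals mark TGGGAA or, where it lies on the other strand, TTCCCA. The windows are chr3:194135898-194136197 (plus strand) for HES1, chr6:125749382-125749681 (plus strand) for HEY2 and chr1:39639594-39639893 (minus strand) for HEYL.
HES1: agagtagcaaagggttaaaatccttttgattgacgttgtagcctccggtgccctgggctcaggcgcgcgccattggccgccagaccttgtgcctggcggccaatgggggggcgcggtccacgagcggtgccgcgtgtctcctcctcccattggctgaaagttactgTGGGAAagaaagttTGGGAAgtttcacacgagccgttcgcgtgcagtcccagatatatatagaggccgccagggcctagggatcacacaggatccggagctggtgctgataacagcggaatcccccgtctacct
HEY2: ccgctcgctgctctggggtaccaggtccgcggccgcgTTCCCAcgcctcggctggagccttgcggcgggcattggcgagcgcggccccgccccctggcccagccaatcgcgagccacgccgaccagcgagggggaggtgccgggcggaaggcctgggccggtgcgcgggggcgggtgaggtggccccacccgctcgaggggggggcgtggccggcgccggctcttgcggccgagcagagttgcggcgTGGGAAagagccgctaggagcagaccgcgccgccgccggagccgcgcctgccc
HEYL: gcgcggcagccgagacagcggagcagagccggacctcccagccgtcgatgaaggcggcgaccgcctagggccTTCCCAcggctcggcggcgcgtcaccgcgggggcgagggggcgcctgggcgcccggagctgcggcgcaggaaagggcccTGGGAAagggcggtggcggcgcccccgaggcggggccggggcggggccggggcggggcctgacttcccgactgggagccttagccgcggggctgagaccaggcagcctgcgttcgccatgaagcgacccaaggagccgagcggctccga
The HES1 window holds TGGGAA at positions -84 and -70 relative to the start, both on the strand of the gene. In HEY2 the motif lies at -213 on the opposite strand and at -3, and in HEYL at -178 on the opposite strand and at -99. Searched on both strands, 24.0% of all 35116 promoter windows of this length hold at least 1 TGGGAA and 3.8% hold at least 2. The windows of NOTCH1, NOTCH2, NOTCH3, JAG1 and JAG2 hold none. The N box CACNAG, a sequence bound by HES proteins, was found 4 times in the HES1 window. It also occurred in the NOTCH1, NOTCH2 and NOTCH3 windows. Of all windows, 38.0% hold at least 1 N box and 8.9% at least 2, and the share with 4 was not computed. The E box CACGTG was in none of the 8. The windows with the motif belong to HES1, with the largest rise in CPM, and to HEY2 and HEYL, both all but unread (below). This holds for the 8 members searched. DLL1 and HEY1 had no entry, and their promoters were not searched.

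Per base of canonical transcript (GRCh37 annotation), NOTCH1, NOTCH2 and NOTCH3 each exceeded JAG1, JAG2 and DLL1 in every group. HES1 moved from second to first place among the tested members as the cells became dense. In control cells at day -2, NOTCH2 stood at 34.4 ± 0.66 FPKM (CPM divided by transcript length in kilobases, SD, n = 3), HES1 at 19.6 ± 2.4, NOTCH3 at 13.4 ± 1.1 and NOTCH1 at 7.30 ± 0.36. The ligands followed, with JAG1 at 2.81 ± 0.080 FPKM and JAG2 at 1.60 ± 0.17. HEY1 stood at 1.54 ± 0.59 FPKM and DLL1 was lowest of the tested members at 0.176 ± 0.040. In that order, JAG2 and HEY1 overlapped between libraries, and all other neighbours were separated. In MMP2sh1 cells HES1 and NOTCH3 also overlapped at day -2. At day +2 the control order began with HES1 at 56.4 ± 0.62 FPKM, followed by NOTCH2 at 21.2 ± 2.0 and NOTCH3 at 12.1 ± 0.67, and JAG1 and JAG2 (1.94 ± 0.31 and 1.85 ± 0.091 FPKM) and HEY1 and DLL1 (0.972 ± 0.18 and 0.804 ± 0.0079 FPKM) overlapped. The ratio of HES1 to NOTCH2, per length and within a library, ranged over 0.404 to 0.631 in the 9 libraries of day -2. It ranged over 0.638 to 0.988 in the confluent libraries and over 2.36 to 2.87 in the overconfluent ones. The libraries of day -2 and day +2 thus did not overlap in any line. When the length of all annotated exons was used instead, HES1 already ranked above NOTCH2 at day 0 in control and MMP2sh1 cells. The places of HES1 and NOTCH2 at days -2 and +2 were the same. Some lower places changed with that length. At day +2 DLL1 then ranked above HEY1 in each line, and JAG2 above JAG1 in control cells. At day -2 JAG2 then ranked above HEY1 in both hairpin lines.

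**Figure D1:**
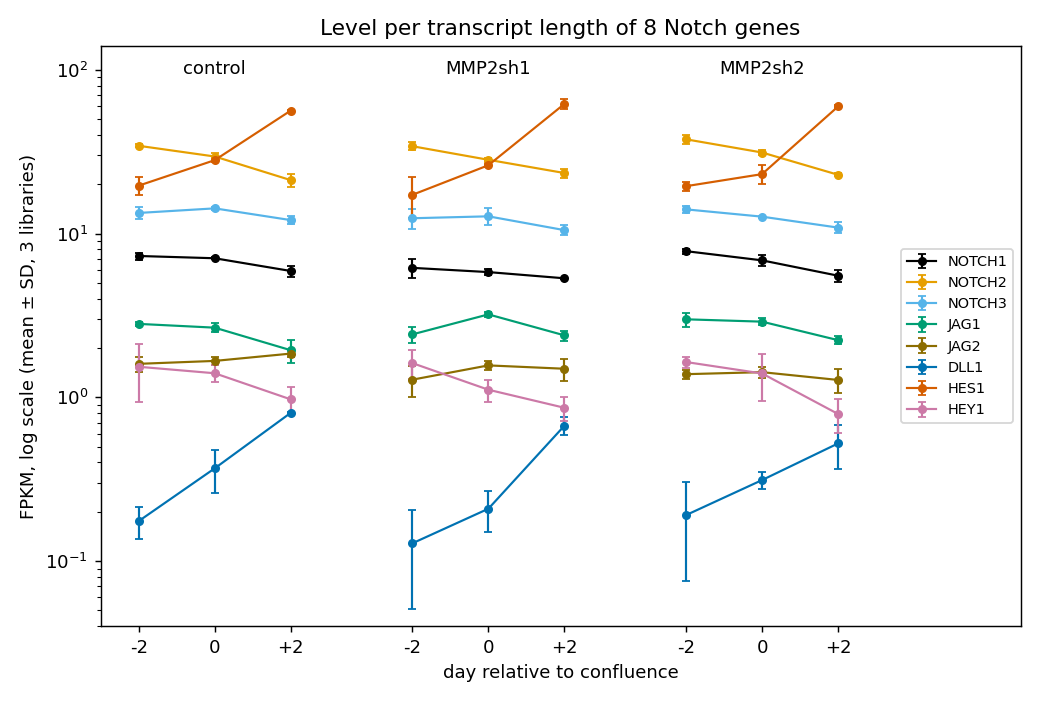
Level per transcript length (FPKM, log scale, mean ± SD of 3 libraries) of the 8 tested Notch genes, by line and day relative to confluence. HES1 crosses NOTCH2 between day 0 and day +2 in each line and reaches 56.4 to 61.9 FPKM, and DLL1 climbs from the lowest place towards HEY1.

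NOTCH2 (chr1:120454176-120643366, minus strand, GRCh37, 34 exons in the canonical transcript) was the most abundant receptor. It was read at 384, 396 and 398 CPM in control cells at day -2, at 324, 358 and 332 CPM at day 0, and at 269, 228 and 230 CPM at day +2. In MMP2sh1 cells the 3 days gave 367 to 407, 311 to 331 and 252 to 286 CPM, and in MMP2sh2 cells 409 to 459, 343 to 365 and 258 to 268 CPM. All 3 days were separated from each other without overlap in each line. The fall from day -2 to day +2 was -0.69 ± 0.054 on the log2 scale in control cells (SE, adjusted p = 1.68e-11), -0.55 ± 0.062 in MMP2sh1 cells (adjusted p = 8.06e-08) and -0.71 ± 0.057 in MMP2sh2 cells (adjusted p = 2.67e-12). Both steps contributed, the first with -0.21, -0.27 and -0.27 and the second with -0.46, -0.26 and -0.43 in control, MMP2sh1 and MMP2sh2 cells, and each of these passed the test. NOTCH2 has close copies, the NOTCH2NL genes, and reads shared with them could not be assigned, which leaves its absolute level uncertain.

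NOTCH1 (chr9:139388885-139440500, minus strand, 34 exons) is the best studied receptor of the family. Its values in control cells were 67.1, 68.7 and 73.7 CPM at day -2, 66.8, 68.2 and 67.9 CPM at day 0, and 61.3, 53.2 and 55.1 CPM at day +2. MMP2sh1 cells gave 52.7, 57.1 and 67.5 CPM, then 53.4, 55.8 and 57.9 CPM, then 51.4, 50.9 and 50.8 CPM, and MMP2sh2 cells 74.0, 72.5 and 77.7 CPM, then 63.7, 71.2 and 62.0 CPM, then 57.8, 52.5 and 48.5 CPM. Day +2 lay below day -2 without overlap in each line, and MMP2sh1 cells started lowest. The log2 fold change from day -2 to day +2 was -0.30 ± 0.062 in control (adjusted p = 0.000176), -0.22 ± 0.081 in MMP2sh1 (adjusted p = 0.0275) and -0.49 ± 0.072 in MMP2sh2 cells (adjusted p = 7.06e-07). The MMP2sh1 call was lost without day -2 replicate 3 or without day +2 replicate 2 or 3 of that line, with values of -0.29 to -0.12 over the 6 fits. Between day -2 and day 0 NOTCH1 fell in MMP2sh2 cells (-0.19, adjusted p = 0.0256), a call lost without day -2 replicate 3 or day 0 replicate 1 or 3 (-0.25 to -0.16 over the 6 fits).

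NOTCH3 (chr19:15269849-15311806, minus strand, 33 exons), is a receptor best known from mural cells of blood vessels. In control cells it was read at 110, 110 and 127 CPM at day -2, at 125, 121 and 125 CPM at day 0, and at 110, 98.5 and 106 CPM at day +2. The ranges over the 3 days were 91.2 to 120, 102 to 126 and 84.1 to 97.3 CPM in MMP2sh1 cells, and 114 to 126, 108 to 111 and 86.8 to 101 CPM in MMP2sh2 cells. Control and MMP2sh2 libraries of day +2 lay below those of day -2, in control by a narrow margin, and MMP2sh1 libraries overlapped. The log2 fold changes were -0.14 ± 0.058 (adjusted p = 0.0454), -0.25 ± 0.083 (adjusted p = 0.0149) and -0.36 ± 0.066 (adjusted p = 2.22e-05) in control, MMP2sh1 and MMP2sh2 cells. The control call was lost without day -2 replicate 3 or day +2 replicate 2 or 3 (-0.17 to -0.07 over the 6 fits), with a stricter filter, 10 counts or more in each library (adjusted p = 0.0632) and with all 27 libraries in 1 fit (adjusted p = 0.113). The MMP2sh1 call was lost without day -2 replicate 2 or 3 or day +2 replicate 3 (-0.36 to -0.16). Its decline came between day 0 and day +2 in control and MMP2sh1 cells (-0.22, adjusted p = 0.000957, and -0.27, adjusted p = 0.00299). In MMP2sh2 cells it fell in both steps (-0.15, adjusted p = 0.037, and -0.20, adjusted p = 0.00573), and the first of these was lost without day -2 replicate 2 or 3 or any of the 3 day 0 replicates (-0.20 to -0.13 over the 6 fits), with no filter on low counts (adjusted p = 0.0748) and with all 27 libraries in 1 fit (adjusted p = 0.154).

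**Figure D2:**
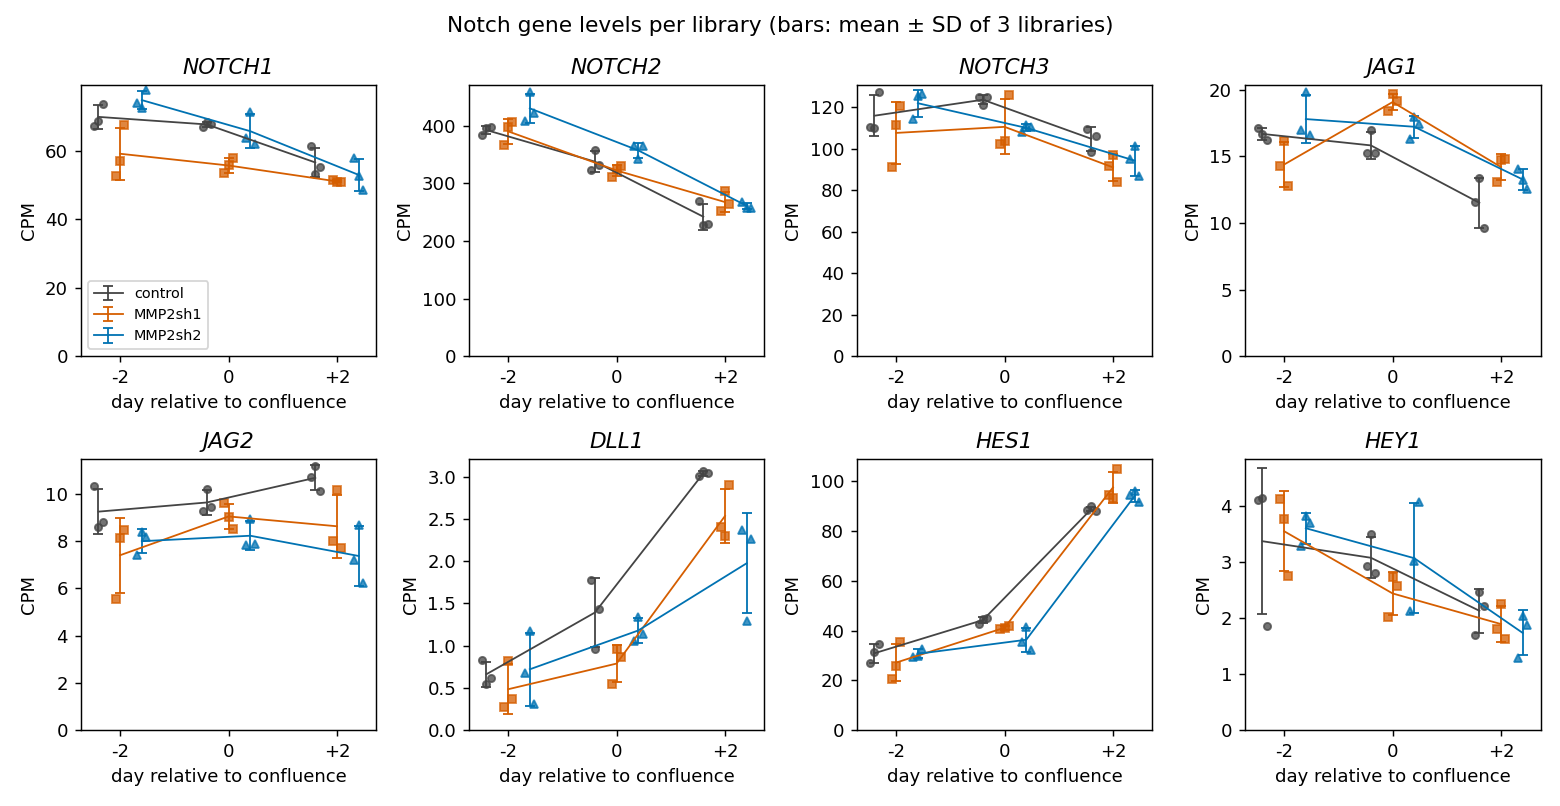
CPM of the 8 tested Notch genes in each of the 27 libraries, by day relative to confluence (points: libraries; bars: mean ± SD of 3; lines join the means). HES1 lies between 20.4 and 35.4 CPM at day -2 and between 88.0 and 105 CPM at day +2, while NOTCH2 goes from 367 to 459 CPM down to 228 to 286 CPM.

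JAG1 (chr20:10618332-10654647, minus strand, 26 exons), the more abundant Jagged ligand, differed in course between MMP2sh1 and control cells by an interaction test (adjusted p = 0.0455). That call was lost in most fits that left out a library, as given below. Control cells gave 17.2, 16.7 and 16.2 CPM at day -2, 15.3, 17.0 and 15.2 CPM at day 0, and 11.6, 13.4 and 9.65 CPM at day +2. In MMP2sh1 cells the values were 14.2, 16.1 and 12.8 CPM, then 18.4, 19.7 and 19.1 CPM, then 13.0, 14.7 and 14.8 CPM. The confluent MMP2sh1 libraries stood above all libraries of both other days in that line, whereas in control cells no day stood above day -2. MMP2sh2 cells followed control cells, with 16.6 to 19.8, 16.3 to 17.9 and 12.5 to 14.0 CPM. JAG1 fell from day -2 to day +2 in control cells (-0.53 ± 0.11, adjusted p = 0.000154) and in MMP2sh2 cells (-0.42 ± 0.11, adjusted p = 0.00117), and in MMP2sh1 cells the change was -0.02 (95% interval -0.25 to 0.20, adjusted p = 0.878). In MMP2sh1 cells JAG1 rose between day -2 and day 0 (0.41 ± 0.10, adjusted p = 0.00319) and fell between day 0 and day +2 (-0.41 ± 0.092, adjusted p = 0.000651).

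JAG2 (chr14:105607319-105635161, minus strand, 26 exons), the second Jagged ligand, did not pass the test between days in any line. Control libraries held 10.4, 8.59 and 8.80 CPM at day -2, 9.26, 10.2 and 9.43 CPM at day 0, and 10.7, 11.2 and 10.1 CPM at day +2. MMP2sh1 libraries lay at 5.57 to 8.49, 8.52 to 9.60 and 7.71 to 10.2 CPM, and MMP2sh2 libraries at 7.42 to 8.39, 7.86 to 8.94 and 6.21 to 8.70 CPM. From day -2 to day +2 the 95% intervals of the log2 fold change were -0.02 to 0.44, -0.11 to 0.53 and -0.40 to 0.17 in control, MMP2sh1 and MMP2sh2 cells, and the days overlapped in each.

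DLL1 (chr6:170591294-170615653, minus strand, 11 exons), a Delta-like ligand, was the least abundant tested member per length of canonical transcript and had the largest fold rise in control and MMP2sh1 cells. Control cells held 0.831, 0.544 and 0.614 CPM at day -2, 1.78, 0.966 and 1.44 CPM at day 0, and 3.01, 3.07 and 3.05 CPM at day +2. MMP2sh1 cells gave 0.270, 0.819 and 0.366 CPM, then 0.545, 0.960 and 0.861 CPM, then 2.41, 2.30 and 2.90 CPM, and MMP2sh2 cells 0.674, 1.18 and 0.311 CPM, then 1.06, 1.34 and 1.14 CPM, then 2.37, 1.29 and 2.27 CPM. No library of day -2 reached any library of day +2, where its mean CPM exceeded that of HEY1 in each line. DLL1 rose from day -2 to day +2 by 2.18 ± 0.29 on the log2 scale in control cells (adjusted p = 3.79e-07), by 2.35 ± 0.38 in MMP2sh1 cells (adjusted p = 1.53e-05) and by 1.43 ± 0.39 in MMP2sh2 cells (adjusted p = 0.00262). The control rise at confluence (1.06, adjusted p = 0.031) was lost without day -2 replicate 2 or 3 or day 0 replicate 1 or 3 (0.85 to 1.27 over the 6 fits). The MMP2sh2 rise after confluence (0.77, adjusted p = 0.0431) was lost without day 0 replicate 1 or 3 or day +2 replicate 1 or 3 (0.62 to 1.00), with no filter on low counts (adjusted p = 0.0675) and with all 27 libraries in 1 fit (adjusted p = 0.0913). The counts behind these values were at most 126 reads per library, and 370 bases (9.7%) of the exons of DLL1 overlap FAM120B on the opposite strand, where reads could not be assigned without strand.

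HES1 (chr3:193853937-193856521, plus strand, 4 exons), a basic helix-loop-helix repressor and the best known Notch target, rose about 3-fold with density in every line. Control cells held 26.9, 31.4 and 34.5 CPM at day -2, 42.9, 44.7 and 45.2 CPM at day 0, and 88.6, 89.9 and 88.0 CPM at day +2. MMP2sh1 cells held 20.4, 25.7 and 35.4 CPM, then 40.6, 41.0 and 42.0 CPM, then 94.4, 93.3 and 105 CPM, and MMP2sh2 cells 29.4, 29.9 and 32.8 CPM, then 35.4, 41.6 and 32.1 CPM, then 94.7, 96.0 and 91.6 CPM. The lowest library of day +2 was above the highest of all other libraries, and only in MMP2sh2 cells did days -2 and 0 overlap. The ratio of day +2 to day -2 was 2.87 in control, 3.59 in MMP2sh1 and 3.07 in MMP2sh2 cells, with log2 fold changes of 1.54 ± 0.070 (adjusted p = 2.67e-16), 1.84 ± 0.12 (adjusted p = 5.29e-12) and 1.62 ± 0.071 (adjusted p = 7.57e-19). The greater part of the rise followed confluence: 1.03, 1.26 and 1.40 between day 0 and day +2, against 0.53, 0.60 and 0.24 between day -2 and day 0. The last of these (MMP2sh2, adjusted p = 0.0351) was lost without day -2 replicate 1 or 2 or day 0 replicate 1 or 2 (0.13 to 0.32 over the 6 fits), with DESeq2 (adjusted p = 0.0531) and with all 27 libraries in 1 fit (adjusted p = 0.072).

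HEY1 (chromosome 8, minus strand, 5 exons), a related repressor, moved in the opposite direction to HES1. In control cells it was read at 4.12, 4.14 and 1.87 CPM at day -2, at 2.94, 3.50 and 2.80 CPM at day 0, and at 1.70, 2.48 and 2.22 CPM at day +2. MMP2sh1 cells held 4.14, 3.77 and 2.76 CPM, then 2.02, 2.73 and 2.58 CPM, then 1.81, 2.25 and 1.63 CPM, and MMP2sh2 cells 3.30, 3.82 and 3.71 CPM, then 2.12, 3.02 and 4.08 CPM, then 1.28, 2.05 and 1.89 CPM. Control replicate 3 of day -2 was low and made days -2 and +2 overlap in control cells, and in both hairpin lines the days did not overlap. HEY1 fell by 0.67 ± 0.26 on the log2 scale from day -2 to day +2 in control (adjusted p = 0.032), by 0.91 ± 0.25 in MMP2sh1 (adjusted p = 0.00349) and by 1.05 ± 0.24 in MMP2sh2 cells (adjusted p = 0.000466). The control call was lost without day -2 replicate 1 or 2 or day +2 replicate 1 or 3 (-0.95 to -0.50 over the 6 fits). The fall of MMP2sh2 cells after confluence (-0.80, adjusted p = 0.0145) was lost without day 0 replicate 3 or day +2 replicate 1 (-1.01 to -0.54). Per length, HES1 was 6.88 to 25.7 times as abundant as HEY1 at day -2 and 50.6 to 103 times at day +2.

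HEY2 (chr6:126068810-126082415, plus strand, 5 exons) and HEYL (chr1:40089107-40105315, minus strand, 5 exons), repressors known from heart and vessels, were all but unread. HEY2 had 1 read in 1 confluent MMP2sh1 library and none in the other 26. HEYL had 13 reads in all, at most 4 in a library, and none in 23 of the 27 libraries. Neither reached the count needed for a test, and no difference between groups was detectable at this depth.

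Of the 8 members tested, 7 passed the test between day -2 and day +2 in control cells, beside 56.8% of all genes tested, 6 in MMP2sh1 cells, beside 54.9%, and 7 in MMP2sh2 cells, beside 54.7%. Between day -2 and day 0 the counts were 3, 3 and 4 members in control, MMP2sh1 and MMP2sh2 cells, beside 35.5%, 32.7% and 30.3% of all genes. Between day 0 and day +2 they were 6, 5 and 7, beside 41.4%, 46.0% and 45.5%. The majority of all genes changed over the whole expansion, and with 8 genes these counts do not set the members apart. Across lines, 6 members passed with the same sign from day -2 to day +2, with HES1 and DLL1 higher and the 3 receptors and HEY1 lower. Of all genes tested in all 3 lines, 19.4% were higher in each and 21.6% lower in each. The median log2 fold change of the members was -0.22, -0.12 and -0.39, against 0.028, 0.038 and 0.048 for all genes. In this bulk RNA, a smaller share of cells with a transcript and less of it per cell cannot be told apart. Markers of proliferation also moved between days: MKI67 lay at 592 to 791 CPM at day -2 and 501 to 608 CPM at day +2, CCNB1 at 408 to 465 and 272 to 323 CPM, and MCM2 at 330 to 389 and 238 to 276 CPM, whereas TOP2A lay at 628 to 799 and 760 to 914 CPM. Their part in the changes of the Notch genes was not tested.

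**Figure D3:**
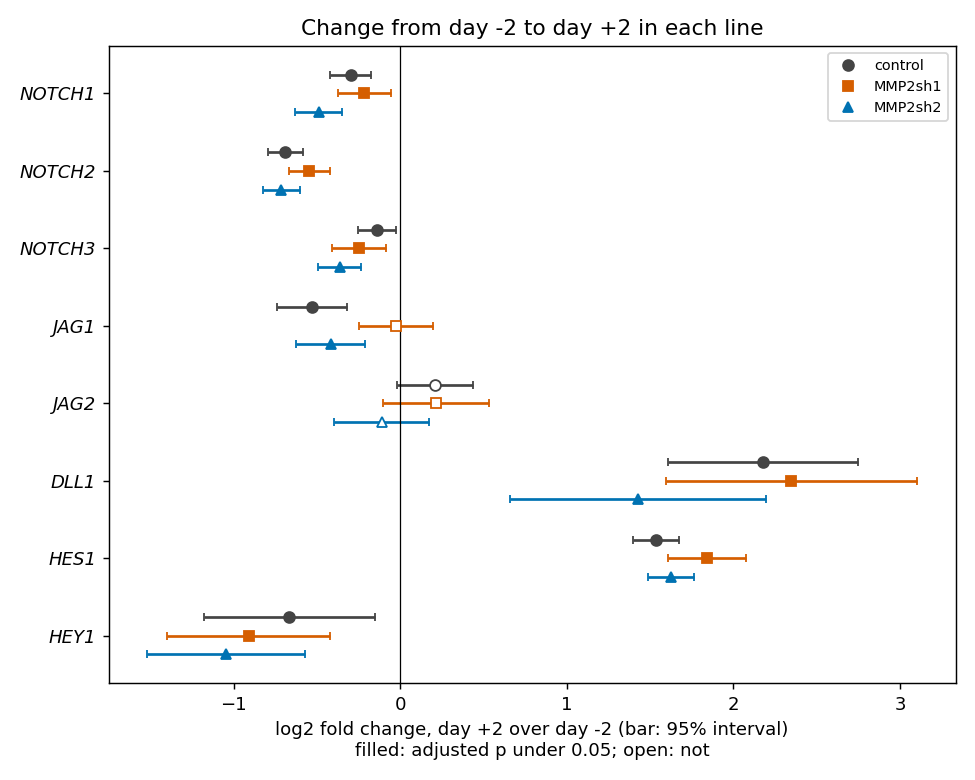
Log2 fold change from day -2 to day +2 of the 8 tested Notch genes in each line, with 95% intervals (filled: adjusted p under 0.05; open: not). HES1 (1.54 to 1.84) and DLL1 (1.43 to 2.35) lie to the right of 0 in all 3 lines, the receptors and HEY1 to the left, and JAG1 lies near 0 only in MMP2sh1 cells.

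Differences of the hairpin lines from control were smaller than any line's change from day -2 to day +2 for HES1, DLL1, NOTCH2 and HEY1. For JAG1, JAG2, NOTCH1 and NOTCH3 some of these differences were larger than that change in some line. The comparisons of MMP2sh1 and of MMP2sh2 cells share their control libraries. In MMP2sh1 cells 1 of 8 members passed at day -2, 3 at day 0 and 1 at day +2, beside 11.6%, 16.8% and 14.8% of all genes. In MMP2sh2 cells the counts were 0, 2 and 1, beside 11.0%, 12.9% and 6.32%. At the day with a count of 0 by edgeR, 1 member (NOTCH2) had an unadjusted p under 0.05, and DESeq2 called 1. Every called difference lay between -0.54 and 0.26 on the log2 scale.

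Among the receptors, NOTCH1 was lower in MMP2sh1 cells before confluence (-0.24 ± 0.075, adjusted p = 0.0352) as well as on reaching it (-0.29 ± 0.055, adjusted p = 0.000234). The confluent libraries did not overlap, with 53.4 to 57.9 CPM against 66.8 to 68.2 CPM in control, whereas at day -2 MMP2sh1 replicate 3 (67.5 CPM) overlapped control. The day -2 call was lost without any of the 3 control replicates or MMP2sh1 replicate 1 or 2 (-0.34 to -0.17 over the 6 fits). At day +2 NOTCH1 stood at -0.15 (95% interval -0.28 to -0.02, adjusted p = 0.143). In MMP2sh2 cells it stood at 0.09, -0.06 and -0.10 on the 3 days, none past the test.

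NOTCH3 was lower in confluent cells of both hairpin lines, by -0.17 ± 0.056 in MMP2sh1 (adjusted p = 0.0335) and by -0.18 ± 0.047 in MMP2sh2 cells (adjusted p = 0.00683). It was also lower in MMP2sh1 cells at day +2 (-0.21 ± 0.063, adjusted p = 0.0251). Control libraries lay at 121 to 125 CPM at day 0, above all MMP2sh2 libraries (108 to 111 CPM), while MMP2sh1 replicate 3 (126 CPM) was the highest of all 9. The MMP2sh1 call at day 0 was lost without control replicate 1 or 3 or MMP2sh1 replicate 1 or 2 (-0.26 to -0.12), that at day +2 without control replicate 1 or 3 or MMP2sh1 replicate 3 (-0.26 to -0.15), and the MMP2sh2 call without its replicate 1 (-0.20 to -0.17). With all 27 libraries in 1 fit all 3 calls were lost (adjusted p = 0.179, 0.0726 and 0.183, in the same order), and with DESeq2 the first was (adjusted p = 0.0517). The second was also lost with the replicate number as a block (adjusted p = 0.0746). NOTCH2 passed in no comparison with control by edgeR, and its 95% intervals ran from -0.15 at the lowest to 0.26 at the highest. At day -2, however, its MMP2sh2 libraries (409 to 459 CPM) lay above control (384 to 398 CPM) without overlap. The edgeR estimate there was 0.13 (unadjusted p = 0.0214, adjusted p = 0.118).

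Among the ligands, JAG1 was higher in confluent MMP2sh1 cells (0.26 ± 0.088, adjusted p = 0.0347), where its 18.4 to 19.7 CPM did not overlap the 15.2 to 17.0 CPM of control. That call was lost without control replicate 1 or 3 or any of the 3 MMP2sh1 replicates (0.24 to 0.32 over the 6 fits), and with all 27 libraries in 1 fit (adjusted p = 0.0772). JAG2 was lower in overconfluent MMP2sh2 cells (-0.54 ± 0.13, adjusted p = 0.00581), at 6.21 to 8.70 CPM against 10.1 to 11.2 CPM in control without overlap. In MMP2sh1 cells on that day JAG2 stood at -0.31 (95% interval -0.56 to -0.06, adjusted p = 0.101). DLL1 did not pass in either line, although its estimates reached -0.84 in MMP2sh1 cells at day 0 (95% interval -1.57 to -0.11, adjusted p = 0.126).

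Among the targets, HES1 was lower in confluent MMP2sh2 cells (-0.30 ± 0.074, adjusted p = 0.00491), at 32.1 to 41.6 CPM against 42.9 to 45.2 CPM in control. The call was lost without MMP2sh2 replicate 3 (-0.41 to -0.22 over the 6 fits) and with all 27 libraries in 1 fit (adjusted p = 0.0701). At day +2 HES1 stood at 0.13 in MMP2sh1 (adjusted p = 0.153) and 0.08 in MMP2sh2 cells (adjusted p = 0.513), with 95% intervals of 0.01 to 0.25 and -0.03 to 0.20. HEY1 stood between -0.35 and 0.08 in the 6 comparisons, none past the test.

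**Figure D4:**
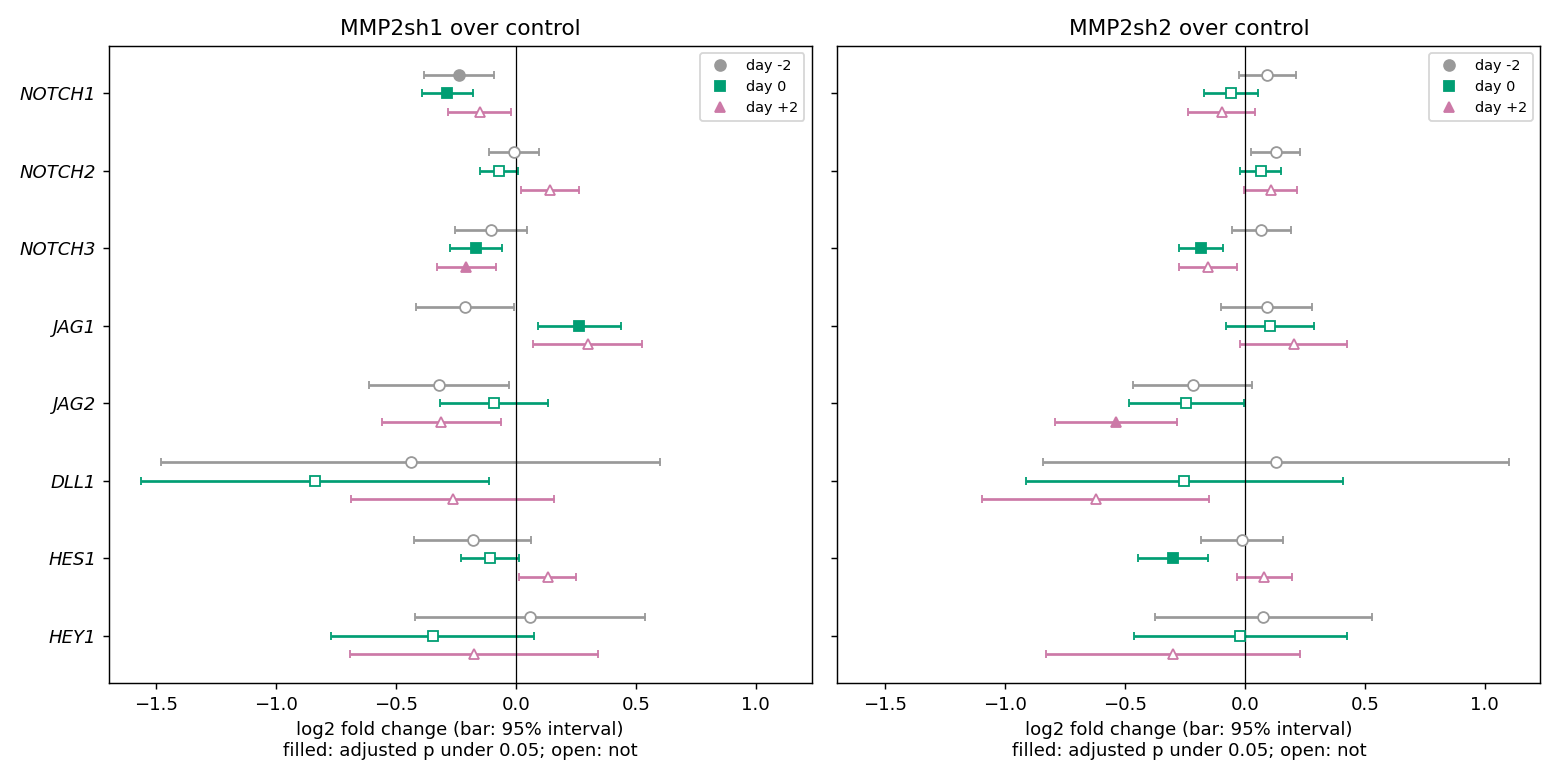
Log2 fold change of each hairpin line over control at each day for the 8 tested Notch genes, with 95% intervals (filled: adjusted p under 0.05; open: not). The filled points are NOTCH1, NOTCH3 and JAG1 in MMP2sh1 cells and NOTCH3, HES1 and JAG2 in MMP2sh2 cells, and every one lies between -0.54 and 0.26.

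The hairpin lines were also compared with each other. NOTCH1 was lower in MMP2sh1 than in MMP2sh2 cells, both before confluence (-0.34 ± 0.079, adjusted p = 0.00451) and on reaching it (-0.23 ± 0.059, adjusted p = 0.00554), without overlap on either day, and the second call was lost without MMP2sh2 replicate 2 (-0.26 to -0.17). NOTCH2 was lower in MMP2sh1 cells at day 0 (-0.13 ± 0.037, adjusted p = 0.00838), a call lost without replicate 1 of either line (-0.17 to -0.11) and with all 27 libraries in 1 fit (adjusted p = 0.0745). These made 1 of 8 members at day -2, beside 10.7% of all genes, and 2 at day 0, beside 18.5%. At day +2 the count was 0, beside 7.86%, by edgeR and by DESeq2, and likewise 0 at an unadjusted p under 0.05.

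The change from day -2 to day +2 was compared between each hairpin line and control in a model with an interaction term. JAG1 was the member called, with a difference in log2 fold change of 0.51 ± 0.16 in MMP2sh1 cells (adjusted p = 0.0455), that is, 1 of 8 members beside 7.40% of all genes. It was lost in 9 of the 12 fits that left out a library, and all 12 gave values between 0.40 and 0.64. In MMP2sh2 cells 0 of 8 members were called by edgeR or DESeq2, beside 4.98% of all genes, and NOTCH3 alone had an unadjusted p under 0.05 (-0.23, adjusted p = 0.163). For HES1 the difference was 0.31 in MMP2sh1 (95% interval 0.01 to 0.62, adjusted p = 0.257) and 0.09 in MMP2sh2 cells (95% interval -0.11 to 0.28, adjusted p = 0.715).

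The other genes of the pathway were followed in a list of 49, grouped by role. From day -2 to day +2, 27 of 45 tested genes passed in control, 28 of 44 in MMP2sh1 and 28 of 43 in MMP2sh2. The shares of all genes were 56.8%, 54.9% and 54.7%. The list lay above them in each line, by more in the hairpin lines than in control. Against control at days -2, 0 and +2, the counts were 4 of 44, 6 of 43 and 8 of 45 in MMP2sh1 cells, beside 11.6%, 16.8% and 14.8% of all genes. In MMP2sh2 cells they were 8 of 44, 2 of 43 and 2 of 45, beside 11.0%, 12.9% and 6.32%. Of 43 genes tested in all 3 lines, 10 rose and 9 fell in every line over the whole expansion, which is near the shares of 19.4% and 21.6% of all genes. The 8 proteases and gamma-secretase subunits had 4, 6 and 3 members higher in control, MMP2sh1 and MMP2sh2 cells and none lower, and the protease ADAM17 was higher in each line. Of all genes 28.1%, 27.3% and 27.7% were called higher in the same comparisons, and 28.6%, 27.7% and 27.1% lower. Of the 6 nuclear repressors 3 were lower in each line, namely CTBP1, CTBP2 and NCOR1, and CIR1 was higher in each. NRARP, a feedback inhibitor and Notch target named here after its values were seen, was read at no more than 0.117 CPM in control cells at day -2 and at 0.312 to 0.363 CPM at day +2. In MMP2sh1 cells NRARP had at most 0.122 CPM at day -2 and 0.233 to 0.287 CPM at day +2. In MMP2sh2 cells it had at most 0.0203 CPM and then 0.194 to 0.401 CPM. The days thus did not overlap, although no library held more than 24 reads, and NRARP could be tested in only 1 line. The other targets tested did not share a course. HES6 and DTX1 had mean log2 fold changes of 0.194 and 0.343 over the lines, and HES7 had -0.444. None of them was called with the same sign in all 3 lines.

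Among the genes called in every line, the 3 largest mean rises were in the Mastermind coactivators MAML3 and MAML2 and in NOTCH4, a receptor known from endothelium. MAML3 went from 3.67, 4.62 and 5.23 CPM in control cells at day -2 to 23.1, 17.8 and 22.0 CPM at day +2, from 2.11 to 4.29 CPM up to 26.2 to 28.9 CPM in MMP2sh1 cells, and from 4.07 to 4.82 CPM up to 19.9 to 21.8 CPM in MMP2sh2 cells. The log2 fold changes of MAML3 were 2.24 ± 0.13, 2.93 ± 0.16 and 2.28 ± 0.12 (adjusted p = 4.61e-14, 2.98e-13 and 9.02e-17). MAML2 rose from 8.19 to 11.0 CPM over the 9 libraries of day -2 to 24.4 to 34.5 CPM at day +2, with 1.56, 1.68 and 1.40. NOTCH4 rose from 1.16 to 2.89 CPM to 3.80 to 8.16 CPM, with 1.11, 1.18 and 1.03. None of these 3, chosen for their large rises, overlapped between the days.

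The 3 largest mean falls were in DTX2 and DTX4, Deltex E3 ligases that act on Notch, and in DLL3, a Delta-like protein that does not activate receptors on neighbouring cells. DTX2 fell from 47.6 to 59.2 CPM at day -2 to 20.6 to 25.1 CPM at day +2, by -1.17 ± 0.077, -1.35 ± 0.077 and -0.96 ± 0.076 in control, MMP2sh1 and MMP2sh2 cells. DLL3 fell from 4.64 to 8.36 CPM to 1.94 to 3.88 CPM, by -0.79, -0.90 and -1.39. DTX4 fell by -0.60, -1.28 and -0.88, from 27.6 to 34.0 CPM to 11.4 to 20.2 CPM, and was lowest in overconfluent MMP2sh1 cells (12.1, 14.1 and 11.4 CPM against 18.4, 18.7 and 20.2 CPM in control, -0.61 ± 0.10, adjusted p = 6.02e-05). These 3 genes were likewise taken from those called in every line, so that all 9 changes passed the test by that choice. None of the 3 genes, chosen for their large falls, overlapped between the days.

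No gene of the list passed with the same sign in 4 of the 6 comparisons of a hairpin line with control, and LFNG and PSEN2 are named here after their values were seen. LFNG encodes Lunatic Fringe, a glycosyltransferase that alters which ligands a Notch receptor answers to. It was read at 179, 207 and 201 CPM in control cells at day -2, at 114, 117 and 126 CPM at day 0, and at 213, 219 and 207 CPM at day +2. MMP2sh1 cells went from 139, 162 and 164 CPM through 135, 148 and 138 CPM to 285, 268 and 285 CPM, and MMP2sh2 cells from 146, 137 and 145 CPM through 109 to 116 CPM to 205 to 230 CPM. At day -2 LFNG was below control in both hairpin lines without overlap (-0.33 ± 0.065, adjusted p = 0.001, and -0.46 ± 0.058, adjusted p = 1.39e-05). In MMP2sh1 cells it exceeded control in confluent (0.23 ± 0.048, adjusted p = 0.000615) and overconfluent cultures (0.39 ± 0.052, adjusted p = 2.01e-06), and in MMP2sh2 cells it stood at -0.09 and 0.05 on those days (adjusted p = 0.287 and 0.703). PSEN2, a catalytic subunit of gamma-secretase, was lower than control in MMP2sh1 cells on all 3 days (-0.49, adjusted p = 0.00291, -0.47, adjusted p = 0.000859, and -0.28, adjusted p = 0.0404), at 12.9 ± 1.4 against 18.1 ± 1.6 CPM at day -2. Its call at day +2 was lost without control replicate 2 or 3 or MMP2sh1 replicate 2 or 3 (-0.33 to -0.21 over the 6 fits). That call was also lost with the replicate number as a block (adjusted p = 0.082). In MMP2sh2 cells PSEN2 stood at 0.24, 0.25 and -0.06, none past the test.

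**Figure D5:**
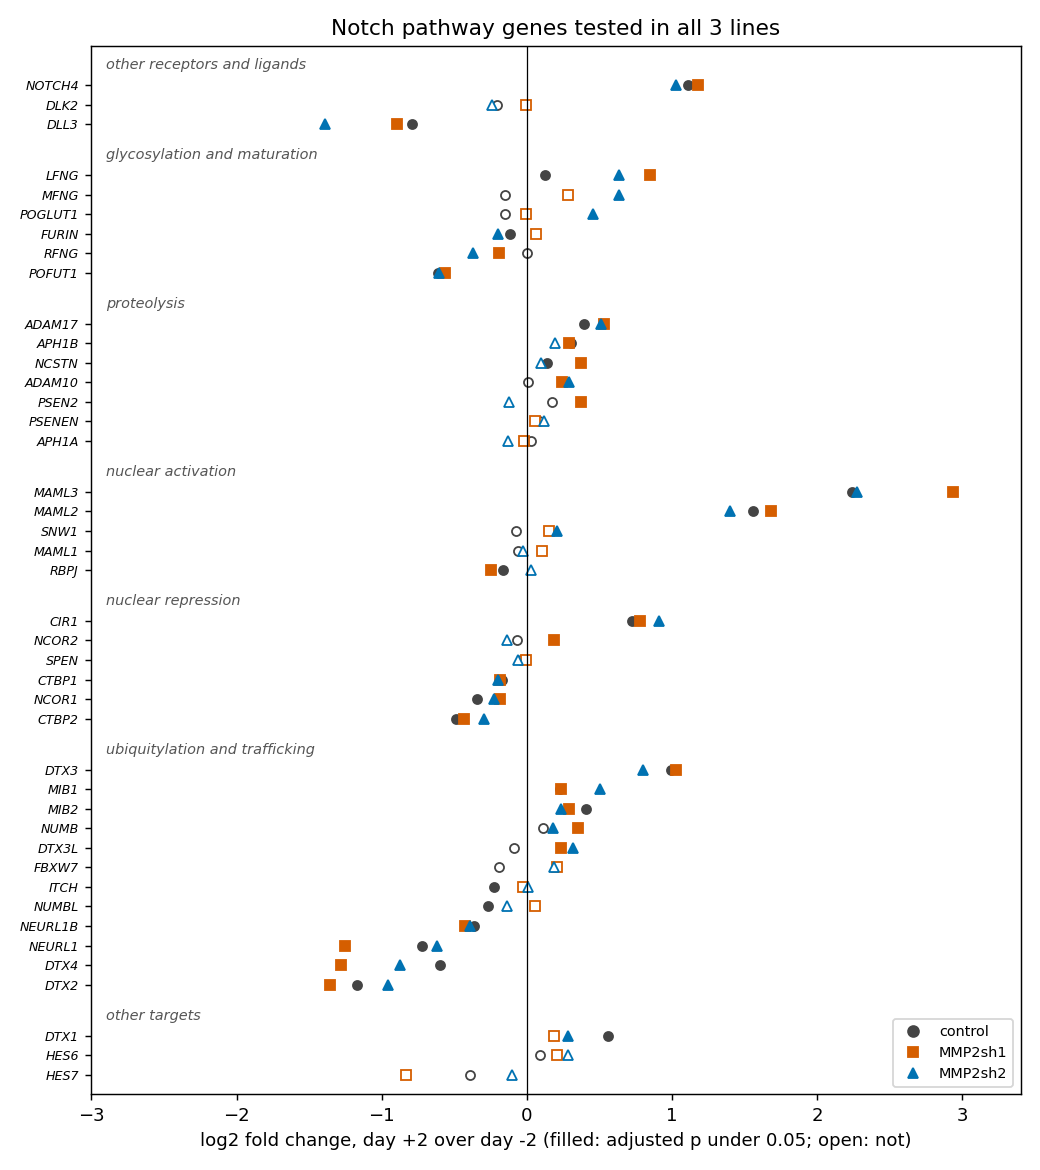
Log2 fold change from day -2 to day +2 of other Notch pathway genes tested in all 3 lines, grouped by role (filled: adjusted p under 0.05; open: not). MAML3 (2.24 to 2.93) and MAML2 (1.40 to 1.68) lie farthest to the right, and DTX2 (-1.35 to -0.96) and DLL3 (-1.39 to -0.79) are among those farthest to the left.

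Over the means of the 9 groups, which share lines, days and scaling, the members fell into opposed courses. HES1 correlated with DLL1 at r = 0.934 and with NOTCH2 at r = -0.955 and HEY1 at r = -0.945, and JAG2 followed none of them (r = 0.222 with HES1). Among 15128 genes with a mean of at least 1 CPM, those most like HES1 were CPQ (r = 0.997) and CRYBA4 (r = 0.996), those most like NOTCH2 were MICAL3 (r = 0.997) and HCFC1 (r = 0.996), and those most like NOTCH1 were DAG1 (r = 0.984) and MYBL2 (r = 0.981). NOTCH3 was most like SLC25A11 (r = 0.970) and RPP25 (r = 0.961), DLL1 most like ERO1LB (r = 0.994) and POLD4 (r = 0.989), and HEY1 most like CCDC167 (r = 0.991) and RP11-298J20.4 (r = 0.987). The closest genes to JAG1 were LINC00508 (r = 0.954) and CYP27B1 (r = 0.938), and to JAG2 PDGFRB (r = 0.910) and BCOR (r = 0.906). These likenesses are descriptions over 9 points, dominated by the day of culture.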

How the data were processed

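Poly(A) RNA of 27 U2OS libraries was sequenced, 3 for each line and day, and groups were assigned from the sample labels. The authors deposited unnormalized read counts, 1 value per gene symbol and library. Their processing used Trim Galore 0.6.0 for trimming, STAR 2.7.3a for alignment (genome hg19) and HTSeq 2.0.0 for counting over exons in union mode without regard to strand. The annotation release is not given in the sources used here. Summary lines naming no gene held 16.8% to 19.1% of each total and were left out of library sizes and tests. Replicate libraries of a group differed by more than sampling noise (chi-square per degree of freedom 4.58 to 22.2 over 27 pairs).

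For each comparison the libraries concerned were scaled by TMM and tested by quasi-likelihood in edgeR 4.0.16 (R 4.3.3), after filterByExpr had removed low genes (minimum count 10, minimum total 15). A gene was called at an adjusted p under 0.05, by Benjamini-Hochberg over all genes tested. CPM values use TMM sizes over all 27 libraries, and FPKM divides CPM by the canonical transcript length. Floors cover counting error only. Alternatives were DESeq2 1.42.0, median-of-ratios scaling, other filters on low counts, the replicate number as a block, all 27 libraries in 1 fit, and leaving out each library.

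The 10 members and the list of 49 pathway genes were chosen with earlier results of these data known. Named list genes were the 3 with the largest mean rise and the 3 with the largest mean fall among those called with the same sign from day -2 to day +2 in all 3 lines, and any called with the same sign in at least 4 of 6 comparisons with control. The 2 genes most like each member were taken by Pearson correlation. PECAM1, an endothelial marker, was not analysed here, and the plot of pathway genes leaves out 1 gene of the list, which is not reported here.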

Additional observations from a re-analysis of the deposited data

Results flagged for a closer look

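Changes from day -2 to day +2 that differed between a hairpin line and control by an interaction test were found for 1 member and for 2 of the named pathway genes. For JAG1 in MMP2sh1 cells the difference in log2 fold change was 0.514 (adjusted p = 0.0455), since its level fell in control cells and ended near its start in MMP2sh1 cells. It was no longer called in 9 of the 12 fits that left out a library, with values of 0.40 to 0.64.

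For LFNG, the Lunatic Fringe glycosyltransferase, the difference was 0.727 in MMP2sh1 cells (adjusted p = 1.61e-06) and 0.506 in MMP2sh2 cells (adjusted p = 7.85e-05). Both were kept in every fit that left out a library, with values of 0.66 to 0.77 and 0.46 to 0.58, and both comparisons use the same control libraries. LFNG rose by 0.84 and 0.63 in MMP2sh1 and MMP2sh2 cells and by 0.13 in control cells, and the control call was lost without day -2 replicate 1 or day +2 replicate 1 or 2 (0.06 to 0.17), with DESeq2, with median-of-ratios scaling and with all 27 libraries in 1 fit (adjusted p = 0.0617, 0.0556 and 0.0856).

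For DTX4, a Deltex E3 ligase, the difference was -0.675 in MMP2sh1 cells (adjusted p = 0.000908), and in MMP2sh2 cells it was -0.28 (adjusted p = 0.178).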

How the results depend on the processing

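The rises of HES1 and DLL1 and the falls of NOTCH2 and NOTCH1 from day -2 to day +2 kept their direction and call under every alternative fit in every line, apart from the left-out libraries named for NOTCH1. Over 340 values for single genes, 156 of them called, 2036 alternative values gave 31 calls lost, 19 gained and 0 reversed, and 2244 values with a library left out gave 88 lost, 30 gained and 0 reversed. The sign of 84 values that were not called changed in some fit, and 4 adjusted p-values were missing from DESeq2. Depth limits DLL1 and HEY1, with few reads per library, and HEY2 and HEYL, with almost none.

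Counts of called genes that moved by over 1.5 times were these, with the reported count in parentheses, and the cause was not tested. With DESeq2 the pathway list gave 7 (4) and the members 1 (0), for MMP2sh1 and MMP2sh2 against control at day -2. In 1 fit of all 27 libraries the members gave 1 (3) for MMP2sh1 and 0 (2) for MMP2sh2 against control at day 0, 2 (4) for day 0 against day -2 in MMP2sh2 cells, and 2 (1) and 1 (2) between the hairpin lines at days -2 and 0. The pathway list in that fit gave 8 (4) for MMP2sh1 at day -2, 0 (2) for MMP2sh2 at day 0, 5 (10) between hairpin lines at day 0 and 8 (5) for the MMP2sh1 interaction.

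With the replicate block the pathway list gave 8 (4) for MMP2sh1 at day -2 and 1 (2) for MMP2sh2 at day 0, and the members gave 0 (1) for MMP2sh1 at day +2 and 4 (1) between hairpin lines at day -2. The block also ended the calls of NOTCH3 and PSEN2 in MMP2sh1 cells at day +2 (adjusted p = 0.0746 and 0.082), of HEY1 from day -2 to day +2 in control cells (0.063), and of NOTCH3 at confluence (0.077) and DLL1 after it (0.0721) in MMP2sh2 cells. Same-numbered libraries did not deviate together by correlation (-0.027 to 0.034). Whether the numbers pair the libraries for single genes was not tested. In 2 of 18 comparisons all 3 libraries of the group named first correlated best with the same number in the other group.

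Leaving out 1 library gave member counts of 0 to 2, 1 to 3 and 0 to 3 for MMP2sh1 against control at days -2, 0 and +2, 1 to 2 for MMP2sh2 at days 0 and +2, 1 to 3 for day 0 against day -2 in MMP2sh2 cells, 1 to 3 and 1 to 2 between hairpin lines at days -2 and 0, and 0 to 1 for the MMP2sh1 interaction. The pathway list gave 4 to 10 for MMP2sh1 at day +2, 0 to 4 and 0 to 3 for MMP2sh2 at days 0 and +2, 3 to 8 and 6 to 8 between hairpin lines at days -2 and 0, and 3 to 6 for the MMP2sh1 interaction.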
